A study of Mus musculus with 12 samples.

Results

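The 46 genes described here carry out or govern DNA replication. They were taken by symbol from a list of DNA replication and S phase genes, and all 46 were found once each among 17723 genes and passed the filter on low counts, which 16306 genes passed. Their messenger RNA was measured by bulk RNA seq in bone marrow-derived macrophages (BMDMs), cells grown from the bone marrow of young adult wild-type C57BL/6 mice (C57Bl/6J in the methods) with the growth factor M-CSF and then kept in medium with less of it. The first group received 2 ng/ml of IL-13, a type 2 cytokine, together with 30 ng/ml of DKK1, a secreted Wnt antagonist given as recombinant protein. The other groups received IL-13 alone, DKK1 alone or neither, and each of the 4 groups had 3 libraries labelled as biological replicates. Treatment lasted 24 h, and the labels give no time for the untreated cells. The labels and methods do not give the number of mice behind them, and the p-values measure the spread between these libraries, which may be partly technical.

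A cell copies its DNA in steps. In G1, the origin recognition complex with Cdc6 and Cdt1 loads the ring of Mcm proteins onto DNA. At the start of S phase Cdc45 and GINS turn that ring into an active helicase, and polymerases, the sliding clamp Pcna and the enzymes that make deoxynucleotides then do the copying. Transcription of many of these genes rises from late G1 to S phase under E2F factors, and cyclin E with the kinase Cdk2 drives the entry into S phase. BMDMs divide in culture as long as M-CSF is present.

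Total counts per library lay between 32224036 and 40917086, and the lowest count of any of the 46 genes in any library was 29. Levels are given as CPM, counts relative to library size after TMM scaling. All 9 macrophage markers were present. Sums were 33700 to 34800 CPM with IL-13+DKK1, 19500 to 20500 with IL-13, 44500 to 45200 with DKK1 and 27600 to 28300 in untreated cells. The sum was thus lowest where the replication genes were highest, but Lyz2 made up most of it. Mean Lyz2 was 23240, 11180, 32150 and 17010 CPM in the same order of groups. Adgre1, Csf1r, Fcgr1 and Cd14 were also lowest with IL-13. Itgam, Mertk and Spi1 were lowest in other groups, and Cd68 was highest with IL-13. The 7 myeloid progenitor markers summed to 8.18 to 11.7 CPM with IL-13+DKK1, 8.98 to 12.7 with IL-13, 7.47 to 9.40 with DKK1 and 14.7 to 15.8 in untreated cells. The 6 neutrophil markers summed to 688 to 845 CPM with IL-13+DKK1, 451 to 662 with IL-13, 453 to 478 with DKK1 and 666 to 741 in untreated cells. Of 5 erythroid markers only Tfrc, which dividing cells also use for iron uptake, and Klf1 had values, and they summed to 304 to 333 CPM with IL-13+DKK1, 511 to 541 with IL-13, 90.7 to 102 with DKK1 and 91.3 to 93.2 in untreated cells. Of the T and NK cell list only Cd4 (1 of 6) and of the B cell list only Cd79a (1 of 3) had values, at most 14.8 and 0.747 CPM. The 4 stromal markers summed to between 53.3 and 166 CPM, and none of the 3 mast cell and basophil markers had a value. Mitochondrial genes took 1.32 to 1.39% of counts with IL-13+DKK1, 1.35 to 1.62% with IL-13, 1.28 to 1.39% with DKK1 and 1.06 to 1.11% in untreated cells. The part of these cell type markers and of the mitochondrial share in the results was not tested.

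Summed over the 46 genes, the level was 1760, 1672 and 1631 CPM in the 3 IL-13+DKK1 libraries, 3182, 3265 and 3298 CPM with IL-13, 817, 861 and 838 CPM with DKK1, and 1096, 1132 and 1174 CPM in untreated cells. The 4 groups did not overlap, and the means were 1688 ± 65.6 CPM with IL-13+DKK1, 3248 ± 59.5 with IL-13, 839 ± 21.8 with DKK1 and 1134 ± 38.8 in untreated cells (SD, n = 3 each). Abundant genes weigh most in such a sum. Mean Pcna was 131 CPM with IL-13+DKK1, 412 with IL-13, 71.2 with DKK1 and 166 in untreated cells. Mean Dnmt1 was 174, 284, 129 and 151 CPM in these groups. IL-13 alone gave the highest summed level, IL-13+DKK1 the next and DKK1 alone the lowest. In bulk RNA a smaller share of cells in S phase and less of these RNAs per cell cannot be told apart. In 36 of the 46 genes the group means stood in this same order, which 7.91% of all tested genes also showed. DKK1 stood above untreated cells in Mcm4, Cdc6, Rfc3, Rfc5, Pola2, E2f1, Ccne1 and Slbp, by 0.18 or less on the log2 scale in all but Pola2 and Ccne1, and with library size only in place of TMM Mcm4, Rfc3 and Slbp fell below untreated cells. Untreated cells stood above IL-13+DKK1 in Pcna and E2f2.

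**Figure D1:**
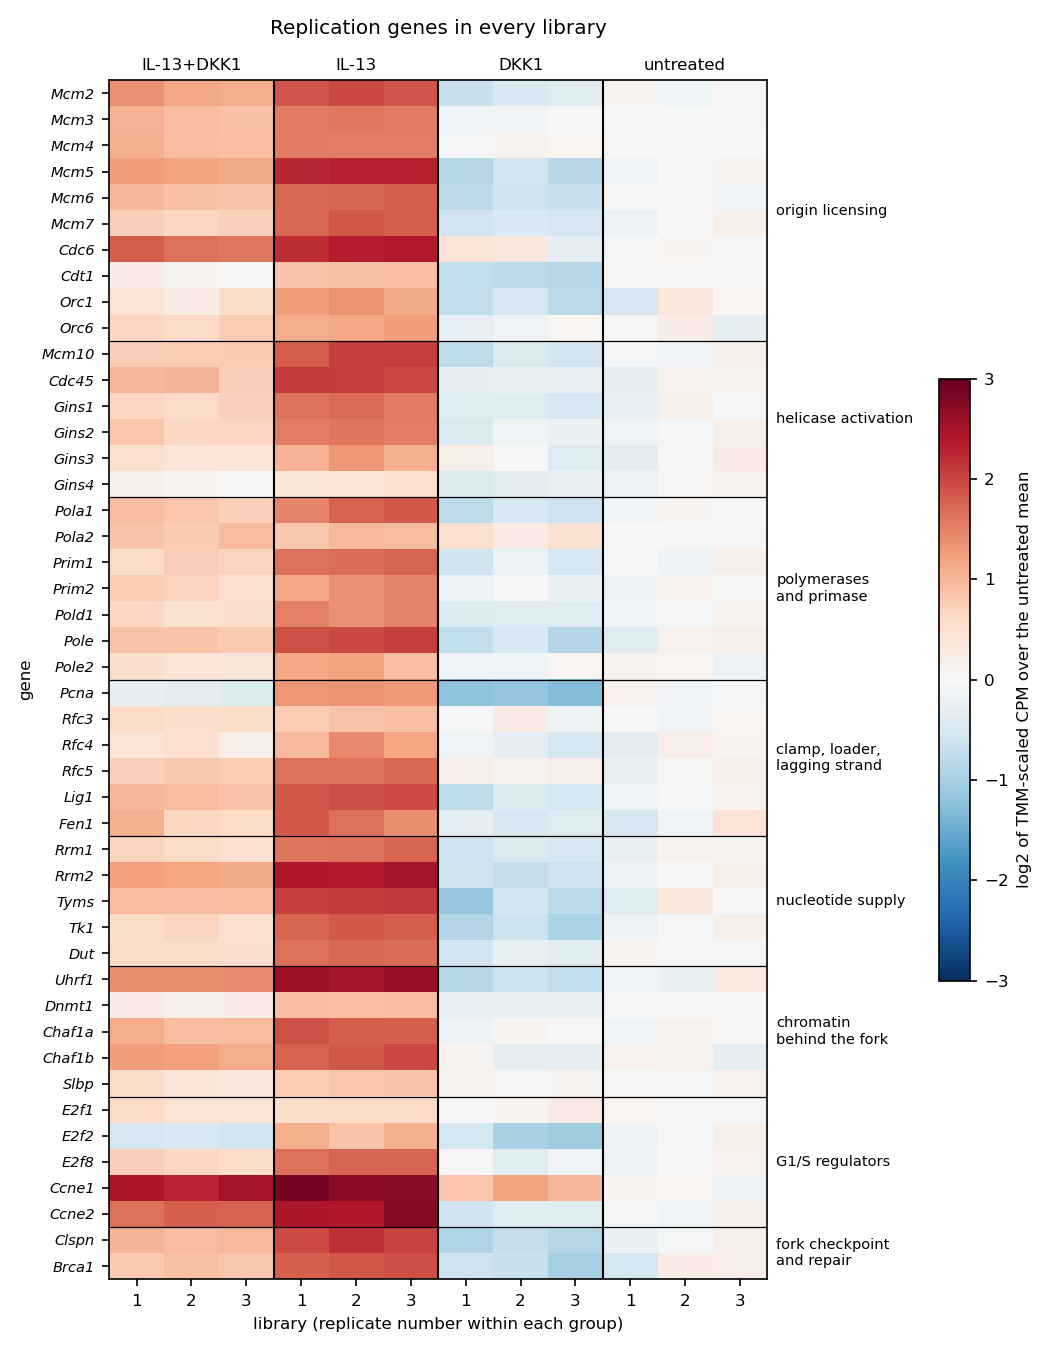
Heat map of the 46 genes (down, grouped by role) in the 12 libraries (across, IL-13+DKK1, IL-13, DKK1 and untreated), with color for the log2 of CPM over the untreated mean. The IL-13 libraries are red for all 46 genes, the IL-13+DKK1 libraries are paler, with Pcna and E2f2 below the untreated level, and Ccne1 is the gene with the clearest red in the DKK1 libraries.

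Each gene was tested in 6 comparisons by edgeR's quasi-likelihood F test, the p-values adjusted by Benjamini and Hochberg's method over all tested genes, and is called here when its adjusted p was under 0.05 and its log2 fold change beyond 1 in size. With IL-13, 39 of the 46 were called higher than in untreated cells and all 46 were higher at the adjusted p alone, where 4.64% and 23.9% of all tested genes were. The median log2 fold change was 1.68, beside -0.02 for all tested genes, and ran from 0.43 in Gins4 to 2.76 in Ccne1. No gene was called lower, nor was any lower at an unadjusted p under 0.05 with edgeR or DESeq2, while 3.49% of all genes were called lower and 23.2% were lower at the adjusted p. The 7 that rose without reaching the fold threshold were Cdt1, Gins4, Rfc3, Pola2, Dnmt1, E2f1 and Slbp.

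DKK1 alone moved the same genes less. Against untreated cells 27 of 46 were lower at the adjusted p, with a background of 23% of all genes, and 2 were higher (Pola2 and Ccne1), with a background of 22.6%. Only Pcna was called lower and only Ccne1 higher, where 6.46% and 5.18% of all genes were called, so the calls past the fold threshold were no more frequent among these genes than among all genes. Without DKK1 replicate 1, 2 were called lower, and 0 were called higher without untreated replicate 3, without DKK1 replicate 2 or with library size only in place of TMM. The median log2 fold change was -0.38, beside -0.04 for all tested genes.

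When DKK1 was added to IL-13, 44 of the 46 genes were lower than with IL-13 alone at the adjusted p and 17 were called lower, where 21.9% and 6.1% of all genes were. The median was -0.86, beside -0.00 for all tested genes. The 2 genes that did not pass were Pola2 (-0.04 ± 0.07, adjusted p = 0.732) and E2f1 (-0.10 ± 0.06, adjusted p = 0.205). None was called higher, and none was higher at an unadjusted p under 0.05 with edgeR or DESeq2, beside 4.66% of all genes called higher and 22.5% higher at the adjusted p.

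In IL-13+DKK1 cells, 41 of the 46 genes were higher than in untreated cells at the adjusted p and 9 were called higher, where 26% and 5.24% of all genes were, with a median of 0.73 (all tested genes -0.01). Pcna and E2f2 were the 2 that were lower at the adjusted p (background 23.5%), and 0 were called lower in edgeR or DESeq2 (background 6.59%). Against DKK1 alone, IL-13+DKK1 raised all 46 at the adjusted p and 26 past the fold threshold, with 20.2% and 3.22% of all genes doing so, and a median of 1.07 (all tested genes 0.01). No gene was called lower there or lower at an unadjusted p under 0.05 with either tool, with backgrounds of 2.29% called lower and 19.1% lower at the adjusted p.

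The effect of DKK1 with IL-13 minus its effect without IL-13, the interaction, asks whether the agents acted independently on the log2 scale. It was negative in 45 of the 46 genes, with a median of -0.51 (all tested genes 0.02). At the adjusted p 31 were negative, with a background of 14.2%, and 0 were positive, with a background of 12%, and Ccne1 and Rfc5 were called, with a background of 2.5% called negative and 2.12% called positive. Without untreated replicate 1 or with library size only, 1 gene, Ccne1, was called, and without other single libraries 2 or 3 were. No gene was positive at an unadjusted p under 0.05 with edgeR or DESeq2. In the 31 genes that passed, the log2 change by DKK1 was thus more negative in cells with IL-13 than without, which is the same as a smaller rise by IL-13 in cells with DKK1 than without.

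Across the 46 genes, the log2 fold change by DKK1 with IL-13 present correlated with that without (Pearson's r = 0.77, Spearman's rho = 0.75), and the IL-13 effect with DKK1 present with that without (r = 0.88, rho = 0.91). The effects of each pair share no library, but genes are not independent replicates, and they share the libraries' scaling, so no p is given.

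**Figure D2:**
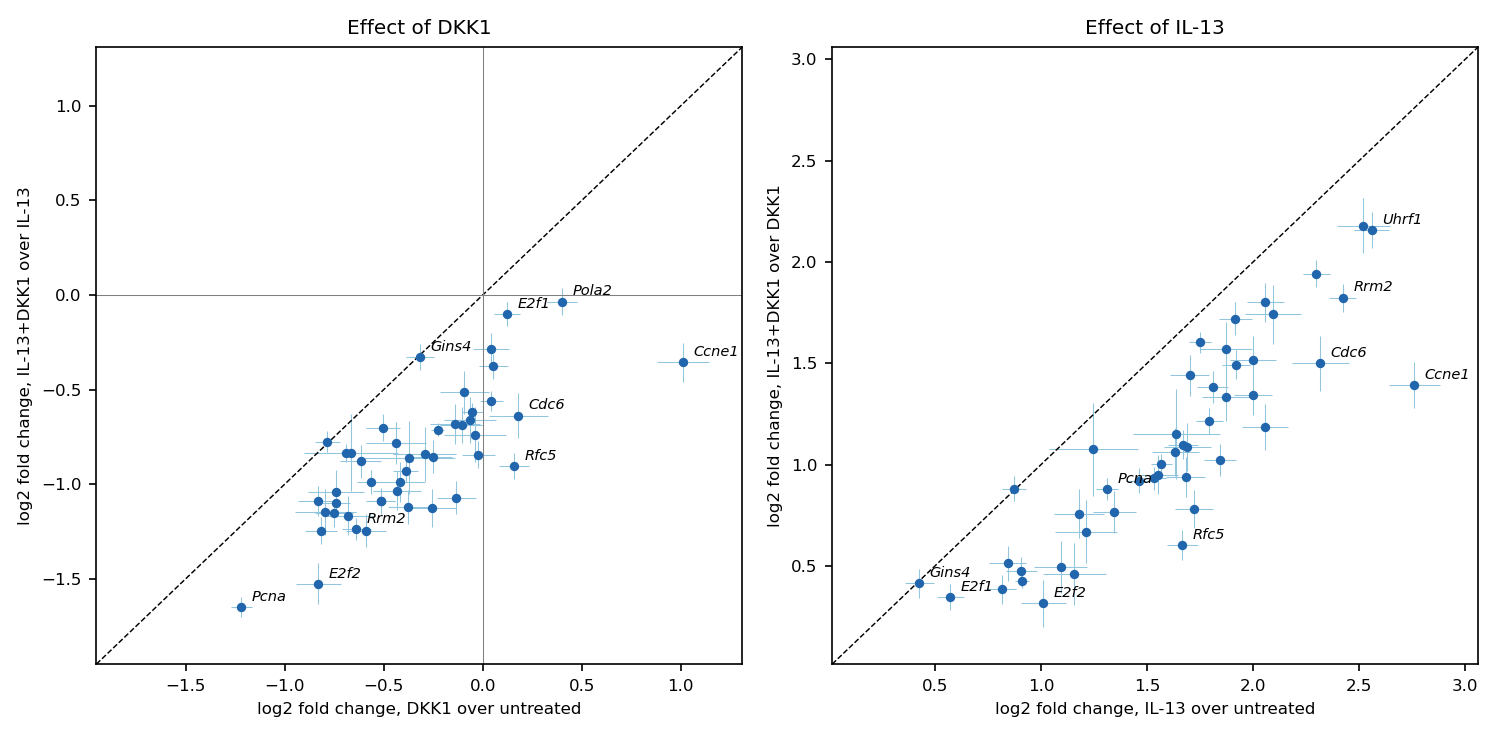
Log2 fold changes of the 46 genes, with bars for the SE. Left, the effect of DKK1 in IL-13-treated cells (vertical axis) against its effect in otherwise untreated cells (horizontal axis); right, the effect of IL-13 with DKK1 against that without. The dashed line marks equal effects, and 45 of the 46 points lie below it in each panel.

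Promoter sequence was read for these genes because many of them moved together. RefSeq promoters on GRCm38.p6, from 250 bases before to 50 after the annotated transcript start, were found for 39 of the 46 genes (47 promoters), and the E2F motif was searched as TTTCGCGC, TTTGGCGC, TTTCCCGC and TTTGCCGC on both strands. It occurred in 17 of the 39 genes. That is 36.2% of their 47 promoters, beside 2.26% of all 32851 promoters of the same length in the table, 22.2% of 36 promoters of the other replication genes, 26.7% of 30 of the G1/S control genes and 5.26% of 19 of the G2 and mitosis genes, lists that are described further on. CCAAT occurred in 59.6% of the 47, against 37.4% of all, and TTTGAA (CHR), the motif linked to late cell cycle genes, in 14.9%, against 17.9% of all promoters and 68.4% of those of the G2 and mitosis genes. A match is a run of letters and no evidence of binding. The first 2 sequences below are those of Mcm5 and Mcm6, 2 helicase subunits with overlapping matches, where a forward and a reverse match share letters, and the last 2 are those of Pcna and Ccne1, the genes called with DKK1 alone, which hold no match in this window. The promoters of Mcm2, Rrm1, Rrm2 and Tk1, among others, held none either, so this does not set Pcna and Ccne1 apart. Capitals mark the E2F motif, and each sequence runs 5′ to 3′ on the strand of the gene.
Mcm5 (chr8:75109259-75109558, plus strand): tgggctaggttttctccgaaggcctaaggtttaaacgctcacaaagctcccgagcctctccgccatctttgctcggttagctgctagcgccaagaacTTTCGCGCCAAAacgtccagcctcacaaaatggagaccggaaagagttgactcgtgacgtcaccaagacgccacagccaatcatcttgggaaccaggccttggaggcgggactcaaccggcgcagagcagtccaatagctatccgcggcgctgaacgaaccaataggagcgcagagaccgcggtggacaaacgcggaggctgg
Mcm6 (chr1:128359656-128359955, minus strand): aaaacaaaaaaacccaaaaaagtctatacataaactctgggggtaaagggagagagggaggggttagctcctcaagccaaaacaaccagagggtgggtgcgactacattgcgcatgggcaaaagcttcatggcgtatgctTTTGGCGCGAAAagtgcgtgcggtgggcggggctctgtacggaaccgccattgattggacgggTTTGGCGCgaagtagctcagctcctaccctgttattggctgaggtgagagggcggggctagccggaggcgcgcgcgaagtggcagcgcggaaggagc
Pcna (chr2:132253131-132253430, minus strand): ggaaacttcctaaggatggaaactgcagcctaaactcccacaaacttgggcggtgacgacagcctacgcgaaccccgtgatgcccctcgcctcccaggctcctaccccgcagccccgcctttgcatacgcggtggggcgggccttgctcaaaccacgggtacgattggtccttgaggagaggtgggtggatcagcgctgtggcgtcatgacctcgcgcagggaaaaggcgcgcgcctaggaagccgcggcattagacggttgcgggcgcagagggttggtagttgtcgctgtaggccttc
Ccne1 (chr7:38107441-38107740, minus strand): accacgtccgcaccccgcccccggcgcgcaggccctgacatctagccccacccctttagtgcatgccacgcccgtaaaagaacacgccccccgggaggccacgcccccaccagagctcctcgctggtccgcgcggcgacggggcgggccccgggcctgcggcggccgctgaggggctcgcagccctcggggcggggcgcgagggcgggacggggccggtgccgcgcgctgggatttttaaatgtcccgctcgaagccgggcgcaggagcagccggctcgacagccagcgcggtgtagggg

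**Figure D3:**
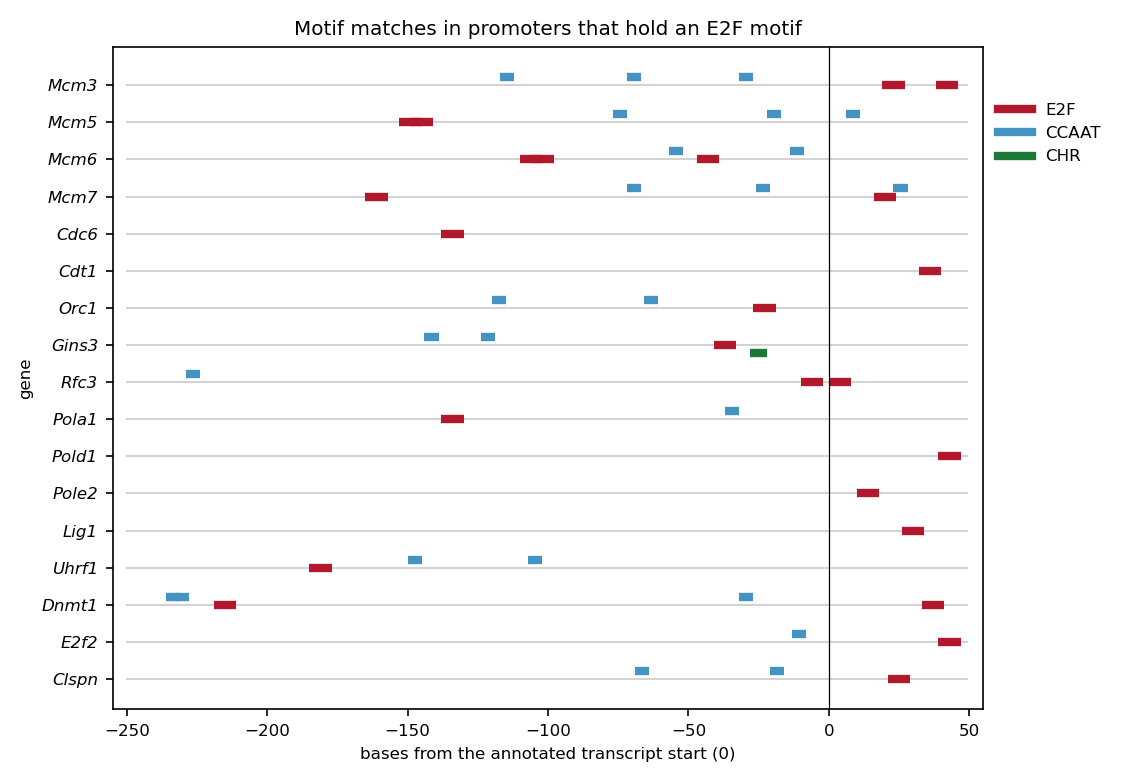
Motif matches (E2F red, CCAAT blue, CHR green) in the 17 promoters with an E2F motif, by distance in bases from the transcript start (horizontal axis, 0 at the start). In Mcm5, 2 E2F matches overlap between 153 and 142 bases before the start, and Mcm6 has 3, 2 of which overlap.

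Origin licensing was the role with the largest membership, 10 genes. With IL-13, 9 of 10 were called higher (median 1.66), beside 4.64% of all tested genes. All but Cdt1, which with Cdc6 loads the ring, passed the fold threshold. With DKK1 alone, 6 of 10 were lower at the adjusted p and 0 called, beside 23% and 6.46% of all genes. At that share, 0 calls do not set a role of this size apart. With DKK1 added to IL-13 all 10 were lower at the adjusted p, and Mcm5 and Mcm7 were called lower, beside 21.9% and 6.1%. The same shares of all genes apply to the counts of the other roles below.

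Mcm2 to Mcm7 are the 6 subunits of the helicase ring. Mcm5 (chr8:75836140-75856231, plus strand, GRCm39) was at 77.2, 74.9 and 70.6 CPM with IL-13+DKK1, 155, 161 and 160.4 CPM with IL-13, 17.8, 21.96 and 18.1 CPM with DKK1 and 29.9, 32.2 and 34.7 CPM in untreated cells. All 4 groups were apart, with the IL-13 libraries highest and the DKK1 libraries lowest. It rose by 2.30 ± 0.06 (log2 fold change ± SE, adjusted p = 4.00e-17) with IL-13 and was -0.74 ± 0.07 with DKK1 (adjusted p = 1.09e-08) relative to untreated cells. DKK1 added to IL-13 changed it by -1.10 ± 0.06 (adjusted p = 8.35e-13), which passed the fold threshold.

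Mcm6 was at 111, 102 and 99.4 CPM with IL-13+DKK1, 181, 185 and 191 CPM with IL-13, 31.9, 36.2 and 34.6 CPM with DKK1 and 56.6, 56.6 and 52.3 CPM in untreated cells. Per kilobase of exon it was the most abundant of the 6 subunits in every group but DKK1, where Mcm3 stood higher at 6.54 CPM per kb (19.1 CPM per kb with IL-13+DKK1, 34.2 with IL-13, 6.30 with DKK1 and 10.2 in untreated cells), and Mcm2 was the least abundant in all 4 (5.32 CPM per kb with IL-13+DKK1, 8.64 with IL-13, 1.61 with DKK1 and 2.29 in untreated cells). Its groups were also apart. The change by IL-13 was 1.75 ± 0.05 (adjusted p = 8.47e-17), by DKK1 -0.69 ± 0.05 (adjusted p = 5.12e-10) and by DKK1 in IL-13-treated cells -0.84 ± 0.05 (adjusted p = 3.02e-12), and the interaction did not pass (-0.15 ± 0.07, adjusted p = 0.152).

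Mcm2 was at 46.6, 40.7 and 39.03 CPM with IL-13+DKK1, 67.05, 71.7 and 66.4 CPM with IL-13, 11.5, 13.1 and 13.8 CPM with DKK1 and 19.2, 16.4 and 18.6 CPM in untreated cells. No libraries of different groups overlapped. IL-13 raised it by 1.92 ± 0.08 and DKK1 changed it by -0.50 ± 0.09 (adjusted p = 1.29e-14 and 4.18e-05), and its interaction was -0.20 ± 0.11 (adjusted p = 0.223).

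Mcm3 and Mcm4 differed from the other subunits in cells without IL-13. Mcm3 was at 87.8, 80.7 and 77.98 CPM with IL-13+DKK1, 124, 128 and 126 CPM with IL-13, 39.8, 39.97 and 43.1 CPM with DKK1 and 42.9, 40.9 and 43.6 CPM in untreated cells. Mcm4 was at 52.6, 47.7 and 47.02 CPM with IL-13+DKK1, 73.2, 71.8 and 72.1 CPM with IL-13, 24.4, 26.7 and 25.98 CPM with DKK1 and 25.4, 24.7 and 24.8 CPM in untreated cells. In both genes the DKK1 libraries overlapped the untreated ones, while the IL-13 and IL-13+DKK1 libraries were apart. DKK1 alone gave -0.05 ± 0.05 for Mcm3 (adjusted p = 0.441) and 0.04 ± 0.06 for Mcm4 (adjusted p = 0.6), of which the sign for Mcm4 turned to -0.08 when counts were scaled by library size only. With IL-13 present DKK1 changed Mcm3 by -0.62 ± 0.05 (adjusted p = 3.22e-10) and Mcm4 by -0.56 ± 0.05 (adjusted p = 8.06e-09), and both interactions passed, at -0.56 ± 0.07 (adjusted p = 2.14e-06) and -0.60 ± 0.08 (adjusted p = 3.78e-06). Against DKK1 alone, Mcm3 reached 1.00 with IL-13+DKK1, a call that 5 of the alternatives brought to between 0.96 and 0.99.

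Mcm7 was at 60.99, 57.2 and 59.9 CPM with IL-13+DKK1, 121, 132 and 126 CPM with IL-13, 24.5, 26.3 and 25.8 CPM with DKK1 and 32.4, 36.4 and 40.5 CPM in untreated cells. The groups did not overlap, and the IL-13+DKK1 libraries lay nearer to the untreated ones than in Mcm2 to Mcm6. IL-13 raised it by 1.79 ± 0.06 (adjusted p = 1.29e-15), DKK1 with IL-13 changed it by -1.09 ± 0.06 (adjusted p = 1.09e-12), and the interaction was -0.58 ± 0.09 (adjusted p = 3.55e-05). Of its 5612 exonic bases 172 also belong to Mir25 and Mir93 on the same strand and 692 to genes on the other.

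Among the loaders and the origin recognition complex, Cdc6, which brings the ring to the origin, had a log2 fold change of 2.32 ± 0.13 with IL-13 and 1.68 ± 0.14 with IL-13+DKK1, both against untreated cells, and passed with both (adjusted p = 5.44e-12 and 7.98e-10). Cdt1 was the licensing gene with the smallest change by IL-13 (0.87 ± 0.06), and DKK1 changed it by -0.78 ± 0.06 without IL-13 and by -0.78 ± 0.06 with it (adjusted p = 4.50e-10 and 1.53e-10). With both agents Cdt1 did not differ from untreated cells beyond the spread (0.10 ± 0.06, adjusted p = 0.18). Orc1, an ATP-binding subunit of the origin recognition complex, was the other licensing gene of which this held (0.41 ± 0.22, adjusted p = 0.123). Orc6 rose by 1.18 ± 0.12 with IL-13.

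**Figure D4:**
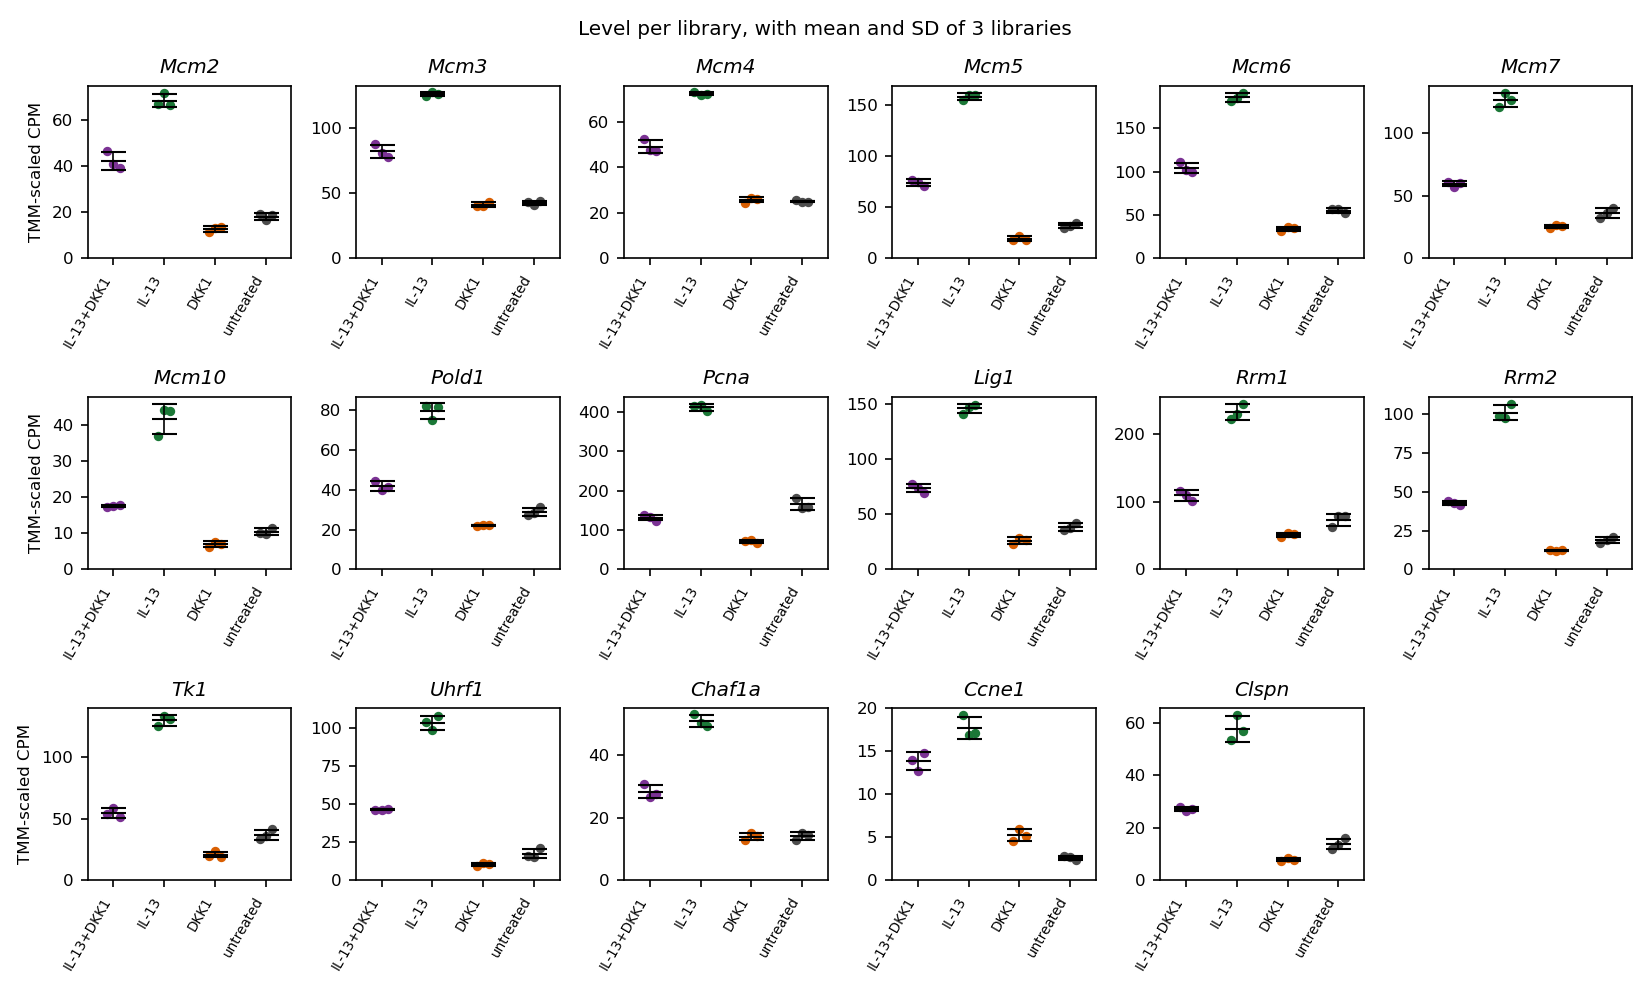
Level of 17 genes (CPM, vertical axes starting at 0) in each of the 12 libraries (points) with the mean and SD of the 3 libraries of a group, for IL-13+DKK1, IL-13, DKK1 and untreated cells from left to right. IL-13 is highest in every panel; IL-13+DKK1 lies below untreated only for Pcna, and the DKK1 mean lies above untreated for Ccne1 and, with overlapping libraries, for Mcm4.

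The 6 genes of helicase activation are Cdc45, the 4 GINS subunits and Mcm10, which helps the assembled helicase to start. With IL-13, 5 of 6 were called higher (median 1.59). With DKK1 added to it all 6 were lower at the adjusted p, Mcm10 and Cdc45 past the fold threshold, and with DKK1 alone 4 were lower and 0 were called. Mcm10 was at 17.3, 17.6 and 17.9 CPM with IL-13+DKK1, 37.00, 44.2 and 44.00 CPM with IL-13, 6.13, 7.72 and 6.95 CPM with DKK1 and 9.95, 9.83 and 11.5 CPM in untreated cells. The 4 groups were apart. It rose by 2.00 ± 0.09 with IL-13 (adjusted p = 8.48e-14) and was -1.25 ± 0.09 with DKK1 added to it (adjusted p = 5.50e-11), with an interaction of -0.66 ± 0.13 (adjusted p = 0.000736). Cdc45 was -0.26 ± 0.12 with DKK1 alone (adjusted p = 0.0929) and -1.13 ± 0.10 with IL-13 present (adjusted p = 4.88e-09). The GINS subunits were unequal, since with IL-13 Gins1 rose by 1.63, Gins2 by 1.55, Gins3 by 1.16 and Gins4 by 0.43. Gins4 had the smallest change by IL-13 of all 46 genes and was the only one whose interaction was near 0 among the GINS genes (-0.01 ± 0.10). Of the 4097 exonic bases of Gins2, 2758 are also exonic in Gse1 on the other strand.

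Polymerases and primase comprised 7 genes, of which all but Pola2 were called higher with IL-13 (median 1.46). Pold1, the catalytic subunit of polymerase delta, was at 44.3, 39.7 and 41.4 CPM with IL-13+DKK1, 81.95, 74.9 and 81.5 CPM with IL-13, 21.7, 22.2 and 22.2 CPM with DKK1 and 27.4, 28.2 and 31.05 CPM in untreated cells. Its groups did not overlap, and the DKK1 libraries lay close together. It rose by 1.46 ± 0.06 with IL-13 (adjusted p = 1.61e-14), and DKK1 changed it by -0.39 ± 0.06 without IL-13 and by -0.93 ± 0.06 with it (adjusted p = 2.64e-05 and 9.84e-12, interaction -0.54 ± 0.09, adjusted p = 5.11e-05). Pole, the catalytic subunit of polymerase epsilon, and Prim1, the catalytic subunit of primase, were the ones called lower with DKK1 in IL-13-treated cells (-1.17 ± 0.10 and -1.03 ± 0.11). Pola2, the accessory subunit of polymerase alpha, went another way. It was 0.40 ± 0.08 with DKK1 alone (adjusted p = 0.000154), 0.91 ± 0.07 under IL-13 and 0.87 ± 0.07 when both were given, so with either agent it stood above untreated cells. The catalytic subunit of the same enzyme, Pola1, was -0.62 ± 0.10 with DKK1 (adjusted p = 3.39e-05) and 1.70 ± 0.09 with IL-13.

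The clamp, its loader and the enzymes of the lagging strand held the gene with the largest fall. Pcna, the sliding clamp that tethers the polymerases (chr2:132091082-132095234, minus strand, GRCm39), was at 137, 132 and 124 CPM with IL-13+DKK1, 415, 418 and 402 CPM with IL-13, 72.1, 74.3 and 67.1 CPM with DKK1 and 182, 156 and 159 CPM in untreated cells. The 4 groups were apart and in an order found in only 2 of the 46 genes, with the IL-13+DKK1 libraries below the untreated ones. DKK1 changed Pcna by -1.22 ± 0.05 without IL-13 (adjusted p = 3.39e-14) and by -1.65 ± 0.05 with it (adjusted p = 1.47e-16), the most negative change of the 46 genes in each comparison. IL-13 raised it by 1.31 ± 0.05 (adjusted p = 1.10e-14), and both together left it at -0.34 ± 0.05 against untreated cells (adjusted p = 1.24e-05). Pcna has the copies Pcna-ps1 and Pcna-ps2 in the annotation and 499 exonic bases shared with a transcript on the other strand, so reads may have been divided or lost in the counting.

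Lig1, the ligase that joins Okazaki fragments, was at 77.2, 74.2 and 69.6 CPM with IL-13+DKK1, 142, 148 and 149 CPM with IL-13, 22.7, 28.9 and 26.96 CPM with DKK1 and 35.7, 37.7 and 42.4 CPM in untreated cells. No groups overlapped. It rose by 1.92 ± 0.07 with IL-13 (adjusted p = 1.99e-15), and DKK1 changed it by -0.56 ± 0.07 without and -0.99 ± 0.06 with IL-13 (adjusted p = 1.49e-06 and 2.38e-11), of which the change with IL-13 was just short of the fold threshold. Among the loader subunits Rfc3 was 0.04 ± 0.09 and Rfc5 0.16 ± 0.08 with DKK1 alone (adjusted p = 0.734 and 0.0994). With IL-13 present DKK1 changed Rfc5 by -0.90 ± 0.07 (adjusted p = 3.40e-10), and its interaction was -1.06 ± 0.10 (adjusted p = 6.67e-08), a call that was lost without untreated replicate 1 and with library size only. Of the 7024 exonic bases of Rfc5, 2905 are also exonic in Wsb2 on the other strand, and of the 3236 of Fen1, which trims flaps from Okazaki fragments, 2134 lie in exons of other genes. Fen1 rose by 1.64 ± 0.20 with IL-13.

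All 5 genes of nucleotide supply moved together. Each was called higher with IL-13 (median 1.81), lower at the adjusted p with DKK1 alone (median -0.64) and called lower when DKK1 was added to IL-13 (median -1.15), and no role of more than 2 genes had as large a share of calls in the last comparison. Rrm2, the subunit of ribonucleotide reductase that is made in S phase, was at 44.1, 42.7 and 41.5 CPM with IL-13+DKK1, 98.8, 97.8 and 106 CPM with IL-13, 12.4, 11.6 and 12.3 CPM with DKK1 and 17.1, 18.6 and 20.8 CPM in untreated cells. The groups were apart. It rose by 2.42 ± 0.06 with IL-13 (adjusted p = 2.08e-17) and stayed 1.18 ± 0.06 above untreated cells with both agents (adjusted p = 9.53e-13). DKK1 changed it by -0.64 ± 0.07 without IL-13 and by -1.24 ± 0.06 with it (interaction -0.60 ± 0.09, adjusted p = 4.42e-05). Of its 3320 exonic bases 1437 are shared with a noncoding transcript on the other strand.

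Rrm1, the large subunit of the same enzyme, was at 116, 111 and 101 CPM with IL-13+DKK1, 222, 229.8 and 245 CPM with IL-13, 47.4, 53.9 and 52.1 CPM with DKK1 and 62.3, 78.4 and 78.5 CPM in untreated cells. Untreated replicate 1 lay below the other 2 untreated libraries, and the groups still did not overlap. Its changes were 1.67 ± 0.07 with IL-13, -0.52 ± 0.07 with DKK1 and -1.09 ± 0.07 with DKK1 added to IL-13 (adjusted p = 2.69e-14, 4.74e-06 and 1.23e-11). Tk1, the thymidine kinase of the salvage pathway, was at 54.2, 58.6 and 51.2 CPM with IL-13+DKK1, 125, 133 and 131 CPM with IL-13, 20.00, 23.7 and 19.2 CPM with DKK1 and 33.2, 36.1 and 41.5 CPM in untreated cells. The DKK1 libraries were the lowest and the groups were apart, with 1.81 ± 0.07 for IL-13, -0.82 ± 0.08 for DKK1 and -1.25 ± 0.07 for DKK1 with IL-13 (adjusted p = 1.39e-14, 1.99e-08 and 2.19e-12). Tyms, which makes thymidylate and has an annotated copy, Tyms-ps, rose by 2.09 ± 0.13 with IL-13, and Dut, which keeps uracil out of DNA, by 1.68 ± 0.09.

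Another 5 genes act on the chromatin behind the fork. With IL-13, Uhrf1, Chaf1a and Chaf1b were called higher, and Dnmt1 and Slbp were higher at the adjusted p. Uhrf1, which finds hemimethylated DNA and recruits the methyltransferase Dnmt1, was at 46.4, 46.5 and 47.04 CPM with IL-13+DKK1, 104, 98.8 and 108 CPM with IL-13, 9.7, 11.2 and 10.5 CPM with DKK1 and 16.2, 15.4 and 21.1 CPM in untreated cells. The groups were apart, and the 3 IL-13+DKK1 libraries lay close together. IL-13 raised it by 2.56 ± 0.08 (adjusted p = 2.97e-16), and DKK1 changed it by -0.75 ± 0.09 and, with IL-13, by -1.15 ± 0.07 (adjusted p = 7.36e-07 and 1.63e-11). Dnmt1 itself moved less, by 0.91 ± 0.03 with IL-13 and -0.71 ± 0.03 with DKK1 added to it (adjusted p = 3.19e-15 and 7.39e-14).

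Chaf1a, the large subunit of the histone chaperone CAF-1, was at 30.9, 26.8 and 27.5 CPM with IL-13+DKK1, 53.1, 50.3 and 49.4 CPM with IL-13, 12.8, 15.1 and 14.03 CPM with DKK1 and 12.9, 15.3 and 14.4 CPM in untreated cells. The DKK1 libraries overlapped the untreated ones, and the other groups were apart. DKK1 alone gave -0.02 ± 0.08 (adjusted p = 0.857), with IL-13 -0.84 ± 0.07 (adjusted p = 2.30e-09), and the interaction was -0.82 ± 0.11 (adjusted p = 6.27e-06). Its change with both agents against untreated cells was 1.00 ± 0.08 (adjusted p = 4.56e-10), and 6 alternatives, DESeq2 among them, put it just under the fold threshold, at 0.94 to 0.99. Of its 9109 exonic bases 4648 are also exonic in Ubxn6 on the other strand. Chaf1b, the middle subunit, rose by 1.87 ± 0.11 with IL-13, and Slbp, which binds the stem-loop of histone messenger RNAs, by 0.82 ± 0.07.

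Ccne1 stood apart among the G1/S regulators. This gene for cyclin E1 (chr7:37797404-37808264, minus strand, GRCm39) was at 14.01, 12.7 and 14.8 CPM with IL-13+DKK1, 19.2, 16.9 and 17.1 CPM with IL-13, 4.62, 5.99 and 5.19 CPM with DKK1 and 2.78, 2.7 and 2.36 CPM in untreated cells. The DKK1 libraries were above the untreated ones with no overlap, and all groups were apart. DKK1 alone raised it by 1.01 ± 0.13 (adjusted p = 1.25e-06), which fell under the fold threshold, at 0.89 with library size only, 0.94 without untreated replicate 3 and 0.93 without DKK1 replicate 2, with the adjusted p still passing. IL-13 raised it by 2.76 ± 0.12 (adjusted p = 5.41e-14), and DKK1 added to IL-13 changed it by -0.36 ± 0.10 (adjusted p = 0.00683), so that DKK1 acted in opposite directions without and with IL-13 (interaction -1.37 ± 0.17, adjusted p = 1.66e-06).

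Ccne2, the gene for cyclin E2, rose by 2.52 ± 0.13 with IL-13 like Ccne1 but was -0.44 ± 0.15 with DKK1 alone (adjusted p = 0.0212). The E2F genes were as unequal. E2f1, a transcription activator of S phase genes, changed by 0.57 ± 0.06 with IL-13 and by 0.12 ± 0.07 with DKK1 (adjusted p = 0.14). E2f2, an activator of the same family, was 1.01 ± 0.10 under IL-13, -0.83 ± 0.11 under DKK1 and -0.52 ± 0.11 when both were given, against untreated cells (adjusted p = 4.89e-08, 2.66e-06 and 0.000486). E2f8, an atypical member that represses transcription, changed by 1.72 ± 0.09 with IL-13 and by -1.07 ± 0.09 when DKK1 was added to it (adjusted p = 1.09e-12 and 8.46e-10).

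Clspn, the adaptor that links stalled forks to the checkpoint kinase Chk1, was at 27.9, 26.3 and 27.3 CPM with IL-13+DKK1, 53.4, 62.9 and 56.9 CPM with IL-13, 7.28, 8.4 and 7.67 CPM with DKK1 and 12.04, 13.5 and 16.02 CPM in untreated cells. Its groups were apart. IL-13 raised it by 2.06 ± 0.09 (adjusted p = 2.69e-14), and DKK1 changed it by -0.83 ± 0.10 and, in IL-13-treated cells, by -1.09 ± 0.08 (adjusted p = 4.14e-07 and 2.16e-10). Brca1, which acts in repair by homologous recombination and at stalled forks, changed by 1.87 ± 0.12, -0.74 ± 0.14 and -1.04 ± 0.12 in the same comparisons (adjusted p = 4.24e-11, 0.000166 and 1.50e-07). Neither interaction passed (adjusted p = 0.165 and 0.256).

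A list of 40 further replication factors had medians of the same signs. With IL-13, 21 of 40 were called higher and 0 lower, beside 4.64% and 3.49% of all genes (32 higher and 2 lower at the adjusted p, beside 23.9% and 23.2%, median 1.11). With DKK1 added to IL-13, 6 were called lower and 0 higher, beside 6.1% and 4.66% (28 and 3 at the adjusted p, beside 21.9% and 22.5%, median -0.49). With DKK1 alone, 0 were called lower and 1 higher, beside 6.46% and 5.18% (17 and 7 at the adjusted p, beside 23% and 22.6%, median -0.20), so the counts of higher genes were not above those of all genes. Timeless, a fork protection factor, resembled Ccne1, with 0.44 ± 0.11 for DKK1, 2.44 ± 0.10 for IL-13 and an interaction of -1.10 ± 0.14 (adjusted p = 0.00214, 1.61e-14 and 3.14e-06). The kinase for deoxycytidine salvage, Dck, was the gene called higher with DKK1 alone (1.16 ± 0.06, adjusted p = 1.14e-13), and it rose further with both agents (1.87 ± 0.06 against untreated cells, adjusted p = 3.09e-17). Samhd1, which breaks down deoxynucleotides, was 0.74 ± 0.04 with DKK1 (adjusted p = 1.43e-12) and -0.12 ± 0.04 with IL-13 (adjusted p = 0.0209).

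Of 27 genes of G1/S control that are not among the 46, 8 were called lower and 1 higher with DKK1 alone, beside 6.46% and 5.18% of all genes (12 and 8 at the adjusted p, beside 23% and 22.6%). Ccnd1, the gene for cyclin D1, changed by -3.61 ± 0.10 and Myc, a transcription factor that promotes growth, by -2.90 ± 0.12 (adjusted p = 1.39e-17 and 1.18e-14), both larger in size than the change of any of the 46 replication genes, and Ccnd3, the gene for cyclin D3, by 1.24 ± 0.05. Genes for inhibitors of cyclin-dependent kinases went both ways. Mean CPM with DKK1 and in untreated cells was 27.8 and 59.8 for Cdkn2c and 0.71 and 2.515 for Cdkn2b. It was 0.43 and 1.6 for Cdkn2a and 0.56 and 1.7 for Cdkn1c, but 197 and 139 for Cdkn1a. For Cdkn1b it was 107 and 71.1, and for Cdkn2d 28 and 20.3. With IL-13 present the change by DKK1 was -1.54 ± 0.08 for Ccnd1 and -0.75 ± 0.09 for Myc, so the interactions were positive (2.07 ± 0.13 and 2.15 ± 0.16, adjusted p = 1.08e-10 and 7.51e-10) where 45 of the 46 replication genes had negative ones. The list as a whole was divided, with negative interactions in 16 of the 27 genes and positive ones in 11 (9 and 5 at the adjusted p, beside 14.2% and 12% of all genes, median -0.10). With IL-13 Rbl1, E2f7 and Cdkn2c were the genes of this list called higher (1.82, 2.23 and 1.04), and 0 were called lower, beside 4.64% and 3.49% of all genes.

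The 24 G2 and mitosis genes had a median of the opposite sign to that of the replication genes when both agents were present. They were lowered by DKK1 alone (22 of 24 called, beside 6.46% of all genes, median -1.68) and with IL-13 (24 of 24, beside 6.1%, median -1.70) and raised by IL-13 (10 of 24, beside 4.64%, median 0.95), but with IL-13+DKK1 19 of 24 were lower than in untreated cells at the adjusted p and 1, Mybl2, was higher, beside 23.5% and 26% of all genes, with a median of -0.75 against 0.73 for the 46 replication genes. Their interaction had a median of -0.11, and 2 of 24 were negative at the adjusted p, beside 14.2% of all genes. Mki67, the proliferation marker Ki-67, was -0.86 ± 0.09 and Mcm5 1.20 ± 0.06 in this comparison (adjusted p = 3.46e-08 and 5.00e-13). The difference between the lists was not tested.

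**Figure D5:**
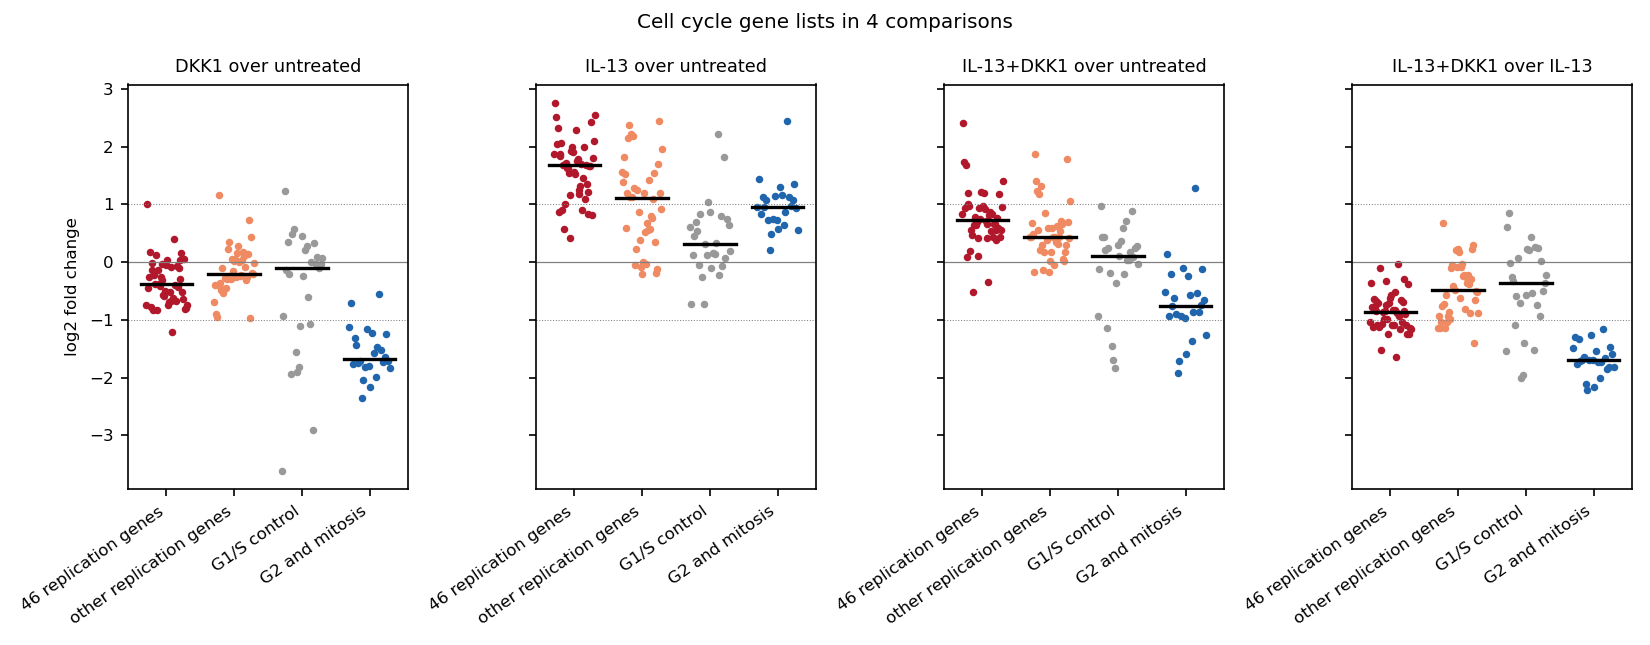
Log2 fold changes of single genes (points) in 4 comparisons (panels) for the 46 replication genes, 40 other replication genes, 27 G1/S control genes and 24 G2 and mitosis genes, with bars at the medians and dotted lines at the fold threshold of 1. With IL-13+DKK1 over untreated cells the medians lie on opposite sides of 0, at 0.73 for the replication genes and -0.75 for the G2 and mitosis genes.

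Within groups the libraries differed little in the summed level of the 46 genes. Of the 3 untreated libraries replicate 1 was the lowest for 30 of the 46 genes and replicate 3 the highest for 25, IL-13 replicate 1 was the lowest of its group for 28, DKK1 replicate 1 for 25 and IL-13+DKK1 replicate 1 the highest of its group for 30. In the summed levels given above, the spreads were small beside the differences between groups, which does not hold for every single gene. Brca1 was at 8.64, 14.4 and 14.2 CPM in untreated replicates 1, 2 and 3. With DKK1 it was at 8.13, 7.81 and 6.27 CPM, close to untreated replicate 1.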

How the data were processed

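A stranded kit for total RNA was used, with ribosomal RNA removed. Per the submitters' notes and the methods, FastQC 0.11.9 and STAR 2.7.6a served for read quality and alignment (GRCm39) and featureCounts for the counting. The authors deposited raw counts, and each gene in the table reached at least 11 in some library. How featureCounts was set for strand, and its version and annotation, was not given in the sources, which leaves overlapping genes and near-identical copies uncertain. Of the counts between 1 and 20, 76% were even, beside 51.6% of those above 1000, so a count may not be 1 independent molecule. The chi-square per gene between libraries of a group was 4.18 to 9.37, so no library copied another. No column was left without a sample.

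Genes were kept by filterByExpr (minimum count 10, minimum total 15), scaled by TMM (factors 0.945 to 1.043) and fitted with 1 mean per group over all 12 libraries by edgeR's quasi-likelihood F test, with Benjamini-Hochberg adjusted p-values over 16306 genes (edgeR 4.0.16, R 4.3.3; common biological coefficient of variation 0.0612). A gene was called past a log2 fold change of 1 in either direction at an adjusted p below 0.05, the thresholds of the study, which used DESeq2 1.30.0. SEs were derived from the fold change and its F value. The same functions were tested on simulated data. Values in every library are given for the 15 called genes with the smallest adjusted p, and for the leading gene of roles without one. Cdc45, Timeless, Dck, Samhd1, Ccnd1, Ccnd3, Myc, Mki67 and Mybl2 and the other genes without library values were named for their role or for being at an extreme, with their values known. The genes, roles and lists were chosen with earlier results of these data known. Positions and exon overlaps came from GENCODE vM39 on GRCm39 and promoters from RefSeq on GRCm38.p6, with no position moved between builds. Alternatives were scaling, filter, DESeq2 1.42.0, fewer groups, a replicate block and leaving out each library.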

Additional observations from a re-analysis of the deposited data

Results flagged for a closer look

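For 14 of the 17 genes described library by library, the effect of DKK1 differed between cells with and without IL-13 by the interaction test of edgeR's quasi-likelihood fit, adjusted over all tested genes. The difference of log2 fold changes (with IL-13 minus without, ± SE) was -1.37 ± 0.17 for Ccne1, where DKK1 alone had the opposite sign, and -0.82 ± 0.11 for Chaf1a. It was -0.66 ± 0.13 for Mcm10, -0.60 ± 0.09 for Rrm2, -0.60 ± 0.08 for Mcm4, -0.58 ± 0.09 for Mcm7, -0.57 ± 0.10 for Rrm1, -0.56 ± 0.07 for Mcm3 and -0.54 ± 0.09 for Pold1. The smaller ones were -0.43 ± 0.07 for Pcna, -0.43 ± 0.10 for Lig1, -0.43 ± 0.11 for Tk1, -0.40 ± 0.12 for Uhrf1 and -0.36 ± 0.09 for Mcm5. The adjusted p-values lay between 1.66e-06 for Ccne1 and 0.0159 for Uhrf1. These 17 genes were chosen for small adjusted p-values in the same data or for leading a role. Of all 46 genes, 31 passed with a negative sign and 0 with a positive one, beside 14.2% and 12% of all tested genes. Groups of 3 libraries are too small for a test of single outlying libraries.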

How the results depend on the processing

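Every count of called genes and every fold change of the 17 named genes was recomputed with other scaling, no filter on low counts, DESeq2, only the groups compared (not for the interaction), a replicate block, and each library left out in turn. Of the single-gene values 1791 kept direction and side of the threshold, 16 dropped below it, 9 rose past it and 3 turned sign. The counts were within 1.5 times of those reported except with DKK1 alone and in the interaction. With library size only, 0 genes were called higher with DKK1 (Ccne1 at 0.89) and 1 was called in the interaction. That scaling moved the median of all genes under DKK1 by -0.12, and turned the sign of Mcm4 to -0.077, and those of Rfc3 and Slbp. With 1 library left out, 1 to 2 genes were called lower and 0 to 1 higher with DKK1, and 1 to 3 were called in the interaction. The count of 2 lower came without DKK1 replicate 1, the count of 0 higher without untreated replicate 3 or DKK1 replicate 2, and the 1 in the interaction without untreated replicate 1. The log2 fold change of Chaf1a under DKK1 then ranged from -0.0851 to 0.0564 and turned sign without untreated replicate 2 (0.0328) or DKK1 replicate 1 (0.0564). Called higher were 38 to 39 genes with IL-13, 8 to 12 with IL-13+DKK1 against untreated cells and 23 to 26 against DKK1, and 17 to 19 were called lower against IL-13. The replicate numbers gave at most a weak pairing of the libraries. Same-numbered deviations from the group means correlated at -0.031 to 0.135 in 18 pairs, mostly above 0 and over 0.1 in 2 of them. For different numbers the range was -0.103 to 0.106. With the replicate block the counts of called genes were the same as without it. They were 1 lower and 1 higher for DKK1, 39 for IL-13 and 2 for the interaction. For IL-13+DKK1 they were 9, 17 and 26 against untreated, IL-13 and DKK1. The cause of these shifts was not tested.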
